A study of Mus musculus with 6 samples.

Results

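Chemokines are small secreted proteins that guide the movement of blood cells, and their receptors are G protein-coupled receptors on the cells that move. Here every probe set was taken that the platform annotation gives to a single mouse gene whose symbol starts with Ccr, Cxcr, Xcr or Cx3cr (receptors) or with Ccl, Cxcl, Xcl or Cx3cl (ligands), followed by a digit. This gave 50 genes of 18193, 17 of them receptors and 33 ligands, with 78 of the 45037 probe sets. RNA came from bone marrow cells that lacked lineage markers and carried Sca1, a fraction enriched for haematopoietic stem cells, and was measured on 6 Affymetrix expression arrays. The 3 DKO arrays held cells of mice without Nr4a1 and Nr4a3, a pair of related nuclear receptors, on a mixed C57BL/6 and 129SvJ background. The 3 WT arrays held cells of wild type mice, for which the labels give no strain. In both groups mice were 2 to 3 weeks old and each array held a pool from 10 to 20 mice; arrays of a group therefore differ as pools do.

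In the marrow, Cxcl12 from stromal cells acts on Cxcr4 and holds stem cells in place, while most other chemokines act on mature white cells. Receptors are shared unevenly: Ccr2 is known from monocytes, Ccr3 from eosinophils and basophils, Ccr1 from monocytes and granulocytes, Cxcr2 from neutrophils, and Cxcr3 and Cxcr6 from effector T cells and natural killer (NK) cells. The cell type in which a gene is known is given below as background and was not measured, and in bulk RNA a different number of cells of a type and a different amount of RNA per cell cannot be told apart.

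In DKO cells 3 receptor genes, Ccr1, Ccr2 and Ccr3, and 4 ligand genes, Ccl5, Ccl6, Ccl9 and Cxcl9, rose, and no member fell. These 7 genes were up by 1.75 to 3.18 on the log2 scale (n = 3 arrays each), and Cxcl10 came close to the threshold (adjusted p = 0.0582). Cxcr4, the receptor of stem cell retention, and its ligand Cxcl12 did not pass. The rises at Ccr2, Ccl5 and Ccl9 were past the threshold whichever single array was left out, and those at Ccr1, Ccr3, Ccl6 and Cxcl9 were not.

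Some of the members that rose lie side by side. In the gene order of RefSeq assembly GRCm38.p6, Ccl5, Ccl9, Ccl6, Ccl3 and Ccl4 follow each other on mouse chromosome 11, where 3 of 12 member ligands rose. Ccr1, Ccr1l1, Ccr3 and Ccr2 follow each other on chromosome 9, where 3 of 11 member receptors rose. Both totals include members too dim to be tested, and of all 11529 genes tested 1.08% rose. Whether neighbours rose together was not tested. The RefSeq promoter windows (250 bases before to 50 after the gene start, read along the gene, GRCm38.p6) are shown for the members that rose and were matched. RefSeq windows were matched by symbol for 37 of the 50 members. Capitals mark matches, on either strand, to the NR4A response element AAAGGTCA or to the kB site bound by NF-kB.
Ccl6, chr11:83593038-83593337, minus strand: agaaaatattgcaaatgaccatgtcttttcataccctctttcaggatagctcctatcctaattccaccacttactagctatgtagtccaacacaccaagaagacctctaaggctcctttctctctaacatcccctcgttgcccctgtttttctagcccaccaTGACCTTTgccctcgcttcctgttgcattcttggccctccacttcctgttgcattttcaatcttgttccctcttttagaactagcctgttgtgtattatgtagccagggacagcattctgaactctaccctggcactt
Ccl9, chr11:83578587-83578886, minus strand: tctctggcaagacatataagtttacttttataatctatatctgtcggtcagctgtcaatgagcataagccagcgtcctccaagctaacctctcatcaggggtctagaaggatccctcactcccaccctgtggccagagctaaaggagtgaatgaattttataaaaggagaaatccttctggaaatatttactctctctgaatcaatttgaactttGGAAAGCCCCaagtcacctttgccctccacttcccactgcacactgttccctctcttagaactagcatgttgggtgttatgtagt
Ccr1, chr9:123968643-123968942, minus strand: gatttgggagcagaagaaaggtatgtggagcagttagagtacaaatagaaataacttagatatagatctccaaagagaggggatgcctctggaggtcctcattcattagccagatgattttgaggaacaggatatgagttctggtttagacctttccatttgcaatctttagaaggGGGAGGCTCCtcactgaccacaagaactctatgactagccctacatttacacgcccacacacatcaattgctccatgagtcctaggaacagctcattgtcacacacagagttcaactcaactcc
Ccr3, chr9:124021721-124022020, plus strand: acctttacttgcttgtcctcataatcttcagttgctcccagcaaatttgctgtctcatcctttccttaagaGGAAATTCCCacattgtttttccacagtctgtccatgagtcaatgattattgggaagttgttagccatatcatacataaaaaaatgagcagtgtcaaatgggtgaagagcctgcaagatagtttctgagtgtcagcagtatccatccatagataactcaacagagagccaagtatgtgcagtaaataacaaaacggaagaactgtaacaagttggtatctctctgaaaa
Ccr2, chr9:124101933-124102232, plus strand: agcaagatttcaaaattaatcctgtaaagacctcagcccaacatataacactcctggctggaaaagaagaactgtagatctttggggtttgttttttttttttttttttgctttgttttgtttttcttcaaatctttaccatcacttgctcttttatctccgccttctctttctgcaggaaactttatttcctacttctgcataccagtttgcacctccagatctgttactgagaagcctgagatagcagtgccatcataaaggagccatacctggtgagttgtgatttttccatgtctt
Cxcl9, chr5:92328030-92328329, minus strand: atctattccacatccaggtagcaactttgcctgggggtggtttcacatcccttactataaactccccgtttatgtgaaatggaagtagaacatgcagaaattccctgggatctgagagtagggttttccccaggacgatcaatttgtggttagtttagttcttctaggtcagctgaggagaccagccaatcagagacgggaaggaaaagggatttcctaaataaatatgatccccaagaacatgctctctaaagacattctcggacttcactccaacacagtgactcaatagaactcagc

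Of 41 member windows, 1 held the NR4A element, that of Ccl6, on the opposite strand (TGACCTTT) and starting 88 bases before the gene start. Of all 32851 windows in the table, 1.51% held it. The element and the 6 bases after it had 1 best ungapped match in the window of the neighbour Ccl9, starting 22 bases before its start, with 13 of 14 bases identical. The 1 difference, counted from the first base of TGACCTTT as printed, was G2C. The kB site was found in 11 of the 41 member windows, against 8.46% of all windows. Among the genes that rose it was in those of Ccl9, Ccr1 and Ccr3. It was also in those of Ccl27a, Cxcl1, Cxcl2 and Cxcl10, which did not pass. The windows of Ccl1, Ccl20, Ccr6 and Cxcl3, too dim to be tested, held it too. The windows of Ccr2 and Cxcl9 as printed held no full match to either motif as searched. Shorter or imperfect kB matches were not counted. The letters TTCNNNGAA, which STAT factors bind, were in 4 member windows against 8.30% of all windows, and among named genes only in that of Ccl17. The kB and STAT motifs were chosen after the values were seen. Both strands were searched, a near-palindromic match can be read on both, and a match of letters is a description of the window.

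Of the 17 receptor genes, 8 had a mean signal above 100 in DKO or WT cells, 4 of them in DKO cells alone (Ccr1, Ccr3, Cxcr3 and Cxcr6) and 4 in both groups (Ccr2, Ccr9, Cxcr2 and Cxcr4). Signals are the authors' MAS5 values, which have no natural unit, and levels of different probe sets cannot be set against each other. Differences are log2(signal + 16), DKO minus WT, with standard errors (SE) and with p-values of limma adjusted over all 27022 probe sets tested, at a threshold of 0.05. The filter on low values let 9 receptor genes through, of which 3 rose and 0 fell, and at an unadjusted p under 0.05 there were 5 higher and 0 lower. Of 11529 genes tested 1.08% rose and 0.633% fell. A gene that is dim in WT can pass that filter through its DKO arrays. With no filter 1 of the 17 receptors, Ccr2, passed, against 0.643% of all genes. Over all 17 the median difference was then 0.17, against 0.00 over all genes.

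**Figure D1:**
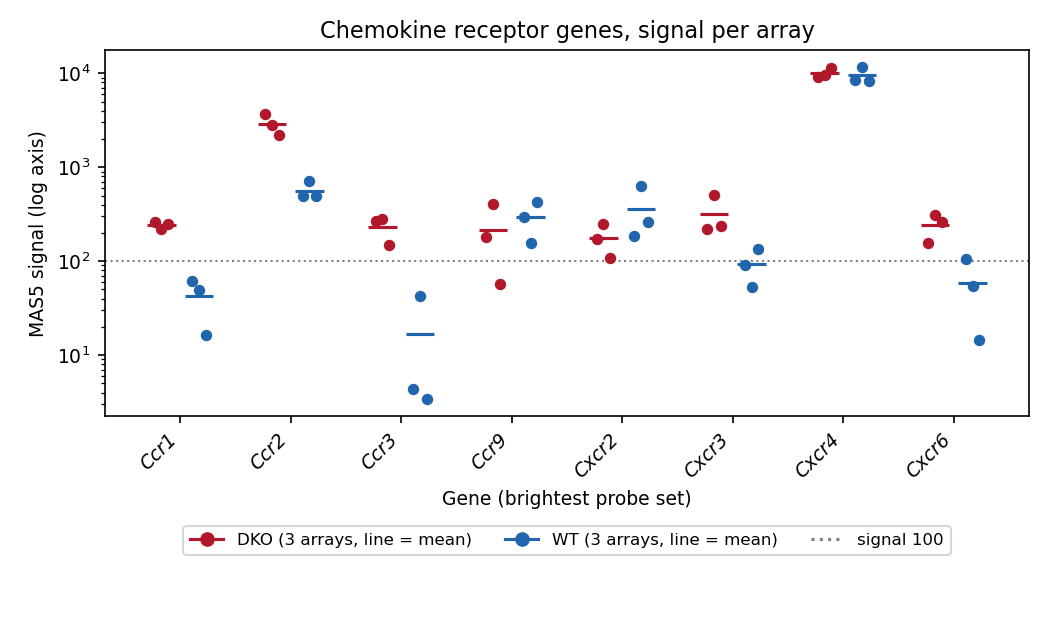
Signal of the 8 receptor genes with a group mean above 100, on a log axis, with 1 point per array (DKO red at left, WT blue at right) and a line at each group's mean; the dotted line marks a signal of 100. The DKO arrays of Ccr1, Ccr2, Ccr3, Cxcr3 and Cxcr6 all lie above the WT arrays, while those of Ccr9, Cxcr2 and Cxcr4 overlap them.

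Ccr2, which binds Ccl2, Ccl7 and Ccl12 and draws monocytes from the marrow, had signals of 3712, 2819 and 2176 in DKO arrays, against 488, 713 and 493 in WT arrays. At this probe set, the brightest of the gene, the groups did not overlap, and every DKO array lay far above every WT array. The mean was 2903 ± 772 in DKO and 565 ± 129 in WT (SD, n = 3 each), a log2 difference of 2.32 ± 0.26 (adjusted p = 0.00152). All 4 Ccr2 probe sets were tested, and the others were higher by 2.20 ± 0.42 (adjusted p = 0.0259), 1.70 ± 0.41 (adjusted p = 0.0695) and 1.28 ± 0.52 (adjusted p = 0.291). At the last of these the groups overlapped. Of the Ccr2 ligands, Ccl2, Ccl7 and Ccl12 stayed under a mean signal of 100 in both groups.

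Ccr3, the receptor of the eotaxins, had signals of 269, 278 and 149.6 in DKO arrays, against 4.4, 43.0 and 3.4 in WT arrays. WT replicate 2 was the highest WT array and still lay below every DKO array. The log2 difference was 3.07 ± 0.55 (adjusted p = 0.0196). Raising the pseudocount to 64 gave 1.87. The call ended on dropping DKO replicate 3 (adjusted p = 0.0623) or WT replicate 1 (adjusted p = 0.0853), when dim probe sets were kept (adjusted p = 0.0579) and when the intensity trend was dropped (adjusted p = 0.0594). Without DKO replicate 1 or 2, with a pseudocount of 1 and with the lowest 60% left out, Ccr3 fell below the filter and had no call. Its eotaxin ligands Ccl11 and Ccl24 were dim in both groups, with means of 15.4 and 22.4 in DKO and 24.1 and 16.2 in WT.

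Ccr1, which in mouse binds Ccl3, Ccl5, Ccl6 and Ccl9, had signals of 259, 220.2 and 247 in DKO arrays, against 61.9, 49.4 and 16.4 in WT arrays. The DKO arrays lay close together, all above the WT arrays. The log2 difference was 2.23 ± 0.46 (adjusted p = 0.0397), while the second probe set of Ccr1 had 1.32 ± 0.53 (adjusted p = 0.284). Leaving out single arrays kept the call in 1 of 6 fits, the one lacking WT replicate 2 (adjusted p = 0.0389). Adjusted p reached 0.154 when DKO replicate 1 was dropped. It also ended with no filter on low values (adjusted p = 0.103), with a replicate block (adjusted p = 0.0607), when the intensity trend was dropped (adjusted p = 0.0609), with a pseudocount of 1 (adjusted p = 0.0588) and over the mean of its probe sets (adjusted p = 0.0847), and Ccr1 was not tested with the lowest 60% left out.

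Cxcr3 and Cxcr6, receptors known from effector lymphocytes, did not pass, though at the brightest probe set of each every DKO array lay above every WT array. Cxcr3, which binds Cxcl9, Cxcl10 and Cxcl11, had signals of 223, 503 and 234 in DKO arrays, against 91.4, 53.0 and 135 in WT arrays (1.60 ± 0.46, adjusted p = 0.132). DKO replicate 2 was the high array. Cxcr6, which binds the membrane chemokine Cxcl16, had signals of 157, 309 and 258 in DKO arrays, against 105, 54.2 and 14.6 in WT arrays (1.96 ± 0.54, adjusted p = 0.114). At a second Cxcr6 probe set the groups overlapped (2.46 ± 0.73, adjusted p = 0.142).

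Cxcr4 had signals of 9226, 9571 and 11469 in DKO arrays, against 8445, 11650.1 and 8321 in WT arrays. The groups overlapped, and the log2 difference of 0.10 ± 0.17 (adjusted p = 0.842) had a 95% interval of -0.26 to 0.47. Cxcr2 had signals of 172, 249.6 and 109 in DKO arrays, against 184, 627 and 260 in WT arrays (-0.84 ± 0.48, adjusted p = 0.468). Its high array was WT replicate 2, which also had the highest summed signal of neutrophil markers. Ccr9, a receptor of early lymphoid cells that move to the thymus, had signals of 179, 407 and 56.8 in DKO arrays, against 294, 158 and 426 in WT arrays. Its 5 probe sets, all tested, did not pass, and their differences lay between -0.72 and 0.13. Without DKO replicate 3 the difference at the brightest Ccr9 probe set was -0.001, against -0.66 with all arrays, so that array carried most of it.

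Among the 9 receptor genes under a signal of 100 in both groups, array values ran from 0.8 to 101.5. Ccr7, which leads lymphocytes and dendritic cells to lymph nodes, had signals of 45.4, 56.0 and 10.2 in DKO arrays, against 81.9, 89.4 and 91.8 in WT arrays. By brightest probe set it was the 1 receptor whose DKO arrays all lay below the WT arrays, though a dimmer Ccr9 probe set showed this too. Its difference of -1.09 ± 0.51 did not pass (adjusted p = 0.361). The remaining 8, Ccr1l1, Ccr4, Ccr6, Ccr8, Ccr10, Cx3cr1, Cxcr5 and Xcr1, did not pass the filter on low values, and their groups overlapped.

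Of the 33 ligand genes, 16 had a mean signal above 100: 4 in DKO cells alone (Ccl17, Cxcl9, Cxcl10 and Xcl1), 1 in WT cells alone (Cxcl17) and 11 in both. The filter let 17 ligand genes through, of which 4 rose and 0 fell in the limma fit, and at an unadjusted p under 0.05 there were 7 higher and 0 lower. Over all 11529 genes tested the shares that rose and fell were 1.08% and 0.633%. As with the receptors, a ligand gene that is dim in WT can pass the filter through its DKO arrays. With no filter the same count, 4 of 33, passed, against 0.643% of all genes. The median difference over all 33 was then 0.29, against 0.00 over all genes.

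**Figure D2:**
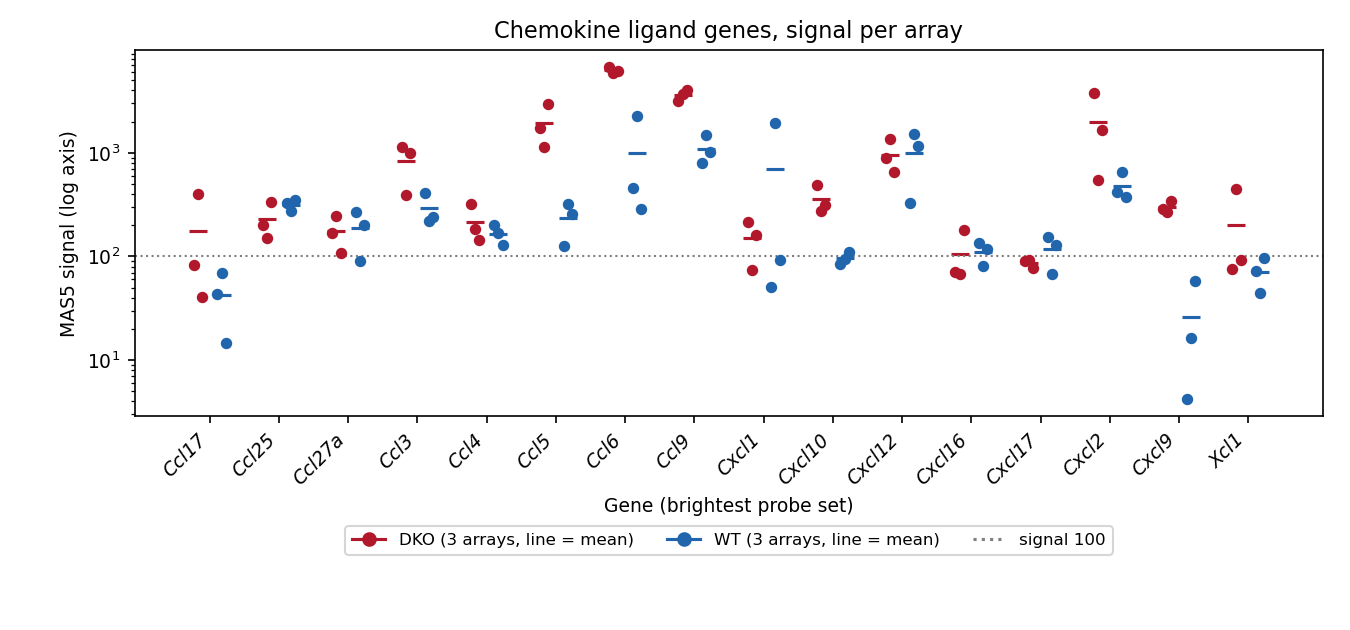
Signal of the 16 ligand genes with a group mean above 100, on a log axis, with 1 point per array (DKO red at left, WT blue at right) and a line at each group's mean. The DKO arrays of Ccl5, Ccl6, Ccl9, Cxcl9 and Cxcl10 all lie above the WT arrays, and 1 WT array of Cxcl1 lies far above the other 5 arrays.

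Of the Ccr1 ligands on chromosome 11, Ccl5, Ccl6 and Ccl9 rose. Ccl6, a mouse chemokine of myeloid cells whose promoter window holds the NR4A element, had signals of 6722, 5875 and 6128 in DKO arrays, against 455, 2263 and 286 in WT arrays. The DKO arrays lay close together, and WT replicate 2 stood far above the other WT arrays. The log2 difference was 3.18 ± 0.55 (adjusted p = 0.0167), and 4.05 without WT replicate 2 (adjusted p = 9.07e-06). The second Ccl6 probe set rose too, by 4.54 ± 0.51 (adjusted p = 0.00126), from its own signals of 3787, 3033 and 2824 in DKO arrays, against 94.8, 350.1 and 48.1 in WT arrays. At the brighter probe set the call ended without WT replicate 1 (adjusted p = 0.0826), without DKO replicate 1, 2 or 3 (adjusted p = 0.0772, 0.0562 and 0.0850) and when the intensity trend was dropped (adjusted p = 0.131).

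Ccl9, a close relative of Ccl6 and its neighbour, had signals of 3130.2, 3677 and 4060.2 in DKO arrays, against 789.5, 1491 and 1014 in WT arrays. Every DKO array lay above every WT array, and WT replicate 2 was again the highest of its group. The log2 difference was 1.75 ± 0.25 (adjusted p = 0.00545), and the call ended without an intensity trend (adjusted p = 0.0727). A second, dimmer probe set had 0.74 ± 0.52 (adjusted p = 0.564), and over the mean of both the adjusted p was 0.0501.

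Ccl5, which NK cells and T cells make in large amounts, had signals of 1730.2, 1136 and 2982 in DKO arrays, against 127, 321 and 256 in WT arrays. The groups did not overlap, and DKO replicate 3, the highest array, also had the highest summed signal of NK and T cell markers. The other DKO arrays had the reverse order. Ccl5 was lower in replicate 2 than in replicate 1, while the NK sum (8875 against 7507) and the T cell sum (2390 against 1860) were higher. In WT arrays Ccl5 and the NK sum were highest in replicate 2, and the T cell sum in replicate 3. The log2 difference was 2.95 ± 0.41 (adjusted p = 0.00439), and the call ended without an intensity trend (adjusted p = 0.0568).

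Ccl3 and Ccl4, inflammatory chemokines next to Ccl6 on chromosome 11, did not pass. Ccl3 had signals of 1131, 391 and 989 in DKO arrays, against 414, 220.0 and 239 in WT arrays (1.39 ± 0.42, adjusted p = 0.147). Its groups overlapped, since DKO replicate 2 lay below WT replicate 1. Ccl4 had signals of 318, 186 and 143 in DKO arrays, against 202, 168 and 129 in WT arrays (0.29 ± 0.41, adjusted p = 0.811).

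Of the interferon-induced ligands of Cxcr3, Cxcl9 rose, Cxcl10 missed the threshold and Cxcl11 was too dim to be tested. Cxcl9 had signals of 286, 266 and 346 in DKO arrays, against 4.2, 16.2 and 57.5 in WT arrays, with no overlap. The log2 difference was 3.11 ± 0.52 (adjusted p = 0.0139), 4.10 with a pseudocount of 1 and 2.05 with a pseudocount of 64. The second probe set had 2.25 ± 0.55 (adjusted p = 0.0788). The call ended without DKO replicate 1 (adjusted p = 0.0726), DKO replicate 3 (adjusted p = 0.0850) or WT replicate 1 (adjusted p = 0.0547) and when the intensity trend was dropped (adjusted p = 0.0527), and Cxcl9 was not tested with the lowest 60% left out.

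Cxcl10 had signals of 489, 273 and 315 in DKO arrays, against 85.1, 94.9 and 110.4 in WT arrays. The groups did not overlap, and the difference of 1.70 ± 0.39 missed the threshold (adjusted p = 0.0582), which it passed in 5 of 10 alternatives that kept all arrays. Cxcl11, under a signal of 100 in both groups and not tested, had signals of 71.7, 102 and 54.3 in DKO arrays, against 21.2, 0.9 and 23.6 in WT arrays. At a second Cxcl11 probe set the groups overlapped, with signals of 37.1, 22.6 and 42.1 in DKO arrays, against 16.4, 27.9 and 21.0 in WT arrays.

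The ligands of Cxcr2 differed from each other by array. Cxcl1 had signals of 216, 74.8 and 159.6 in DKO arrays, against 50.6, 1958 and 92.6 in WT arrays. One pool, WT replicate 2, set its difference: it was -0.65 ± 0.99 (adjusted p = 0.828) with all arrays and 0.86 without that pool (adjusted p = 0.523). A second Cxcl1 probe set was high in the same pool, at 2304, against 82.0 and 192 in the other WT arrays. The remaining Cxcl1 probe set, too dim to be tested, did not show this. Its signals were 33.3, 17.6 and 71.1 in WT arrays, with WT replicate 2 the lowest. Cxcl2 had signals of 3774, 545 and 1647 in DKO arrays, against 416, 658 and 375 in WT arrays, and the groups overlapped. Its difference was 1.65 ± 0.54 (adjusted p = 0.177), and 2.37 without DKO replicate 2 (adjusted p = 0.0236), where it passed.

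Cxcl12, the ligand of Cxcr4, had signals of 881, 1359 and 646 in DKO arrays, against 330, 1510 and 1168 in WT arrays. The groups overlapped, and the difference of 0.13 ± 0.48 (adjusted p = 0.942) had a 95% interval of -0.93 to 1.18, too wide to show that the level was alike. Dropping WT replicate 1 gave -0.52, dropping DKO replicate 2 gave -0.15, and a second probe set had -0.30 ± 0.49. Marrow stroma and endothelium markers had a summed signal of 3875, 9987 and 8527 in DKO arrays, against 2944, 9146 and 6657 in WT arrays. Within WT, replicate 1 was the lowest and replicate 2 the highest in both measures. Within DKO, replicate 2 was the highest in both, while the lowest was replicate 3 for Cxcl12 and replicate 1 for the sum.

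Ccl17, a ligand of Ccr4 that dendritic cells make, and Xcl1, which NK and T cells make, exceeded 100 through 1 DKO array. Ccl17 had signals of 83.0, 403 and 40.6 in DKO arrays, against 43.5, 69.5 and 14.7 in WT arrays (1.30 ± 0.70, adjusted p = 0.430). Xcl1 had signals of 74.9, 443 and 92.1 in DKO arrays, against 72.6, 44.0 and 97.2 in WT arrays (0.97 ± 0.61, adjusted p = 0.512). Both were high in DKO replicate 2, the array that was also highest for Cxcr3. Without that array the difference of Xcl1 was 0.23, and Ccl17 was too dim to be tested.

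The remaining ligands above 100 did not pass, and their groups overlapped. Ccl25, the ligand of Ccr9, had signals of 199.5, 152 and 332 in DKO arrays, against 326, 273 and 348 in WT arrays (-0.51 ± 0.38, adjusted p = 0.589). Ccl27a, a ligand of Ccr10, had 169, 248 and 107 in DKO arrays, against 271, 90.7 and 201 in WT arrays (-0.05 ± 0.48, adjusted p = 0.979). The signs of Ccl27a and of Cxcl16 changed with the setting. Cxcl16, the ligand of Cxcr6, had signals of 71.6, 67.1 and 178 in DKO arrays, against 134, 81.3 and 119 in WT arrays (-0.16 ± 0.47, adjusted p = 0.925). Cxcl17, a chemokine of mucosal tissue, had 91.2, 91.7 and 77.4 in DKO arrays, against 155, 68.2 and 129 in WT arrays (-0.32 ± 0.44, adjusted p = 0.806).

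Of the 17 ligand genes under 100 in both groups, array values ran from 0.4 to 124.4. Cxcl13, a chemokine for B cells, averaged 71.7 ± 24.9 in DKO and 59.1 ± 19.8 in WT (SD, n = 3 each), with a difference of 0.22 ± 0.47 (adjusted p = 0.884). Ccl22, a second ligand of Ccr4, was picked after its values were seen. Its signals were 37.7, 16.8 and 26.7 in DKO arrays, against 2.6, 3.2 and 3.9 in WT arrays. It was too dim to be tested, and with no filter its difference was 1.13 (adjusted p = 0.189). Over both classes the groups did not overlap for 13 of 50 genes, 12 higher and 1 lower in DKO, against 18.1% of all genes.

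**Figure D3:**
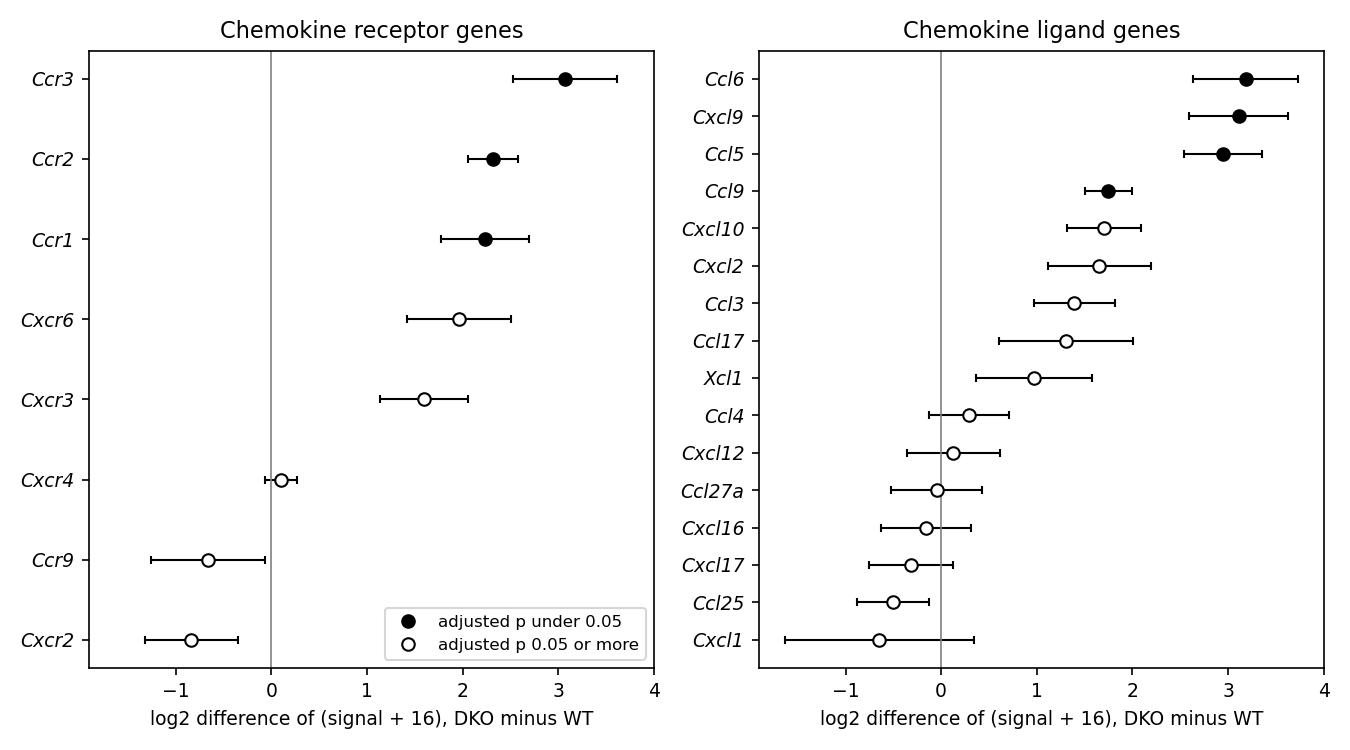
Log2 difference of (signal + 16), DKO minus WT, for the receptor genes (left) and ligand genes (right) with a group mean above 100; points are estimates, bars are standard errors, and filled points have an adjusted p under 0.05. The filled points are Ccr1, Ccr2 and Ccr3 and Ccl5, Ccl6, Ccl9 and Cxcl9, all right of 0, while Cxcr4 and Cxcl12 lie next to 0.

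Counted by probe set, 42 of the 78 were tested, 9 rose and 0 fell, against 1.37% of all probe sets tested changed in either direction. The risen ones were 4 of 18 receptor probe sets and 5 of 24 ligand probe sets. Of 16 tested probe sets that were not the brightest of their gene, 4 had the opposite sign to it, 1 of Ccr9 and 1 each of Ccl25, Cxcl12 and Cxcl16.

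Downstream of the receptors, heterotrimeric G proteins of the Gi class, receptor kinases, arrestins, RGS proteins and the Rac activators carry the signal. Of 42 such genes on a list that also held atypical receptors, 41 were matched and 40 were tested, of which 0 rose and 1 fell in the limma fit. Over all 11529 genes tested 1.08% rose and 0.633% fell. At an unadjusted p under 0.05 there were 2 higher and 4 lower. Arrb1, an arrestin that uncouples and internalises these receptors, was the one that fell. It had signals of 1182, 1280.2 and 849 in DKO arrays, against 2433, 3518 and 2591 in WT arrays, with no overlap (-1.36 ± 0.24, adjusted p = 0.0179). The call ended without DKO replicate 1, without DKO replicate 3 and when the intensity trend was dropped. The median difference of the list was 0.00, against -0.01 over all genes tested. For its 6 G protein genes it was -0.12, for the 14 effector genes 0.01 and for the 8 RGS genes 0.10.

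Markers of some mature cell types rose beside these genes, while for others none or few did. Over all 11529 genes tested 1.08% rose and 0.633% fell. The summed signal of 6 eosinophil markers was 32908 to 39246 in DKO arrays, against 1854.5 to 15491 in WT arrays, and 3 of the 6 rose, namely Siglecf, Alox15 and Epx. Of 7 basophil and mast cell markers 5 rose, among them Ms4a2, Mcpt8 and Cpa3, with a sum of 7059 to 9846 in DKO arrays, against 391 to 958 in WT arrays. The defining mast cell proteases Cma1 and Tpsb2 stayed under 100 in both groups. Ccr3, Ccl6 and both sums were higher in DKO than in WT. WT replicate 2, where Ccl6 and Ccr3 were highest in WT, also had the highest sums of both lists in WT. Within DKO, replicate 2 had the lowest sums of both lists, the lowest Ccl6 at its brighter probe set and the highest Ccr3. At the second Ccl6 probe set DKO replicate 3 was the lowest, at 2824, against 3787 and 3033 in DKO replicates 1 and 2.

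Of 8 NK cell markers 4 rose, among them Gzma, Gzmb and Tbx21, with a sum of 7507 to 10929 in DKO arrays, against 1063 to 1514 in WT arrays. Of 6 tested T cell markers 3 rose, the CD3 chain genes, with a sum over 7 of 1860 to 2730 in DKO arrays, against 946 to 1277 in WT arrays. Cd4 stayed under 100 in both groups. Ccl5 rose beside these lists, while Cxcr3 and Cxcr6 did not pass and, by brightest probe set, were highest in DKO replicate 2, where neither sum was highest. Of 7 monocyte markers on the array 5 were tested and 1, Ly86, rose. Their sum was 10113 to 14131 in DKO arrays, against 7792 to 26792 in WT arrays, highest in WT replicate 2. Lyz2 alone gave 20633 of the sum of that array, and it was lower in every DKO array (-0.86 ± 0.33, adjusted p = 0.257). Ms4a6c was higher in every DKO array (1.73 ± 0.42, adjusted p = 0.0725). At an unadjusted p under 0.05 the limma fit gave 2 monocyte markers higher and 1 lower. Fcgr1 and Cd14 stayed under 100 in both groups. Of 7 dendritic cell markers 5 were tested and 2 rose, H2-Ab1 and H2-Aa, with a sum of 5275 to 6550 in DKO arrays, against 1066 to 1559 in WT arrays, and Batf3 and Cd209a stayed under 100 in both groups. The 7 neutrophil markers had a sum of 29022 to 50997 in DKO arrays, against 17202 to 82089 in WT arrays, and in the limma fit 0 passed, with 0 at an unadjusted p under 0.05. Of 5 tested plasma cell markers 1, Jchain, rose, by 4.13 ± 0.38 (adjusted p = 0.000328). The sum over 6 was 5580 to 14961 in DKO arrays, against 2634 to 3203 in WT arrays. Jchain made up most of it in DKO, with signals of 3620, 8134 and 12066, against 316, 349 and 531 in WT arrays. At an unadjusted p under 0.05 the limma fit gave 3 plasma cell markers higher and 1, Sdc1, lower. None of the tested innate lymphoid type 2, B cell or megakaryocyte markers rose. At an unadjusted p under 0.05 in the limma fit, 1 innate lymphoid type 2 marker, Klrg1, was higher. By the same measure 2 B cell markers, Cd79b and Ebf1, were lower. The part of these cell types in the chemokine differences was not tested.

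**Figure D4:**
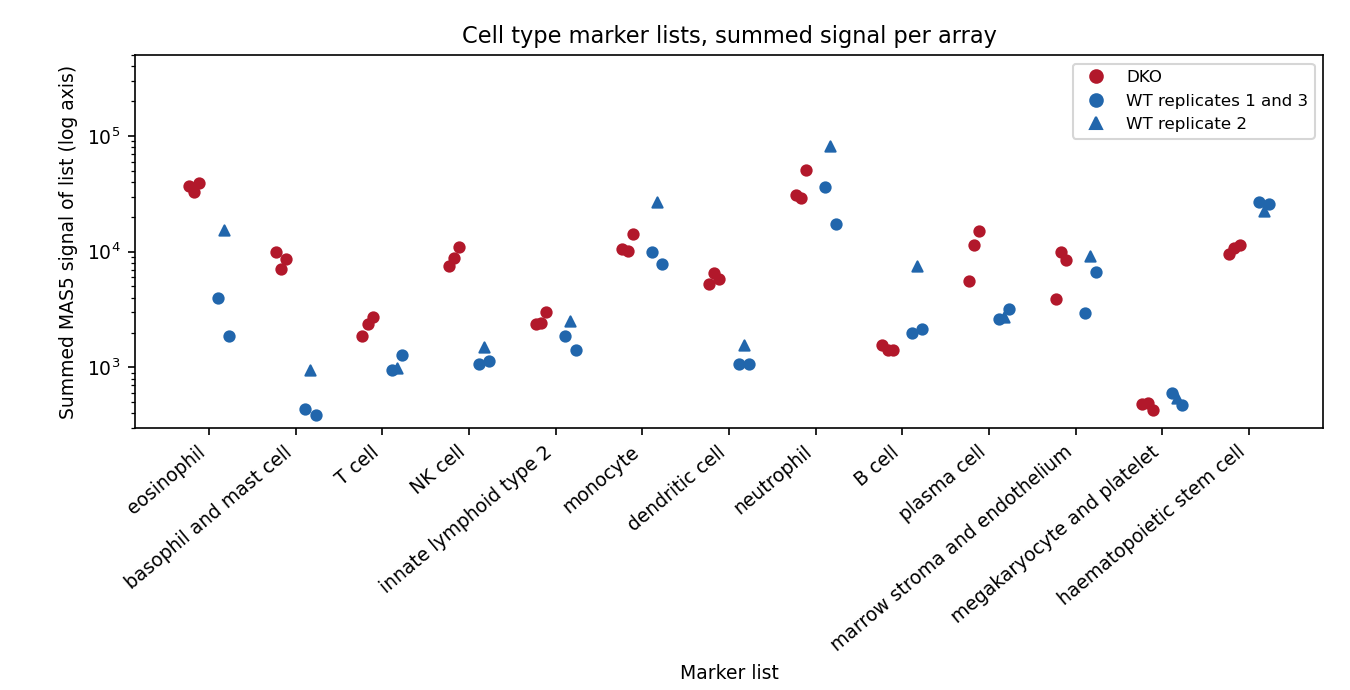
Summed signal of each cell type marker list per array, on a log axis (DKO red at left, WT blue at right, WT replicate 2 as a triangle). Sums of eosinophil, basophil and mast, NK, T, dendritic and plasma cell markers are higher in all DKO arrays than in all WT arrays. Jchain makes up most of the plasma cell sum in DKO arrays. The stem cell sum is lower in all DKO arrays. WT replicate 2 is the highest array for the sums of neutrophil, monocyte and B cell markers.

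As checks of the labels, Nr4a1 had signals of 8.0 to 33.8 in DKO arrays, against 816 to 1269 in WT arrays. Nr4a3 was under 100 in both groups, so its probe set checks nothing. The stem cell list had 7 markers, all above 100 in both groups, with a sum of 9541 to 11362 in DKO arrays, against 22553 to 27159 in WT arrays, and 5 of the 7 fell. Ly6a, the gene of Sca1 itself, was not analysed here. Array medians lay between 91.6 and 123.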

How the data were processed

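RNA of 6 pools of sorted Lin-Sca1+ marrow cells, 3 DKO and 3 WT, was measured on single-colour 3′ expression arrays. Per the submitters' processing notes the authors used MAS5, with no version given, and the deposited table holds 1 linear intensity per probe set and array, with the trimmed mean of each array at 500. No detection calls, batches or scan dates were used here. The arrays of a group are separate pools per the labels, and p-values reflect how pools vary. The number of arrays limits the precision.

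The 64 control probe sets of 45101 were left out. Of the remaining 45037, 34945 have a single gene symbol in the platform annotation. Signals were turned into log2(signal + 16), and the dimmest 40% of probe sets by mean (below a signal of about 53.2) were set aside. The other 27022 went into limma 3.58.1, run in R 4.3.3 (lmFit, eBayes with an intensity trend, two-sided, no block, Benjamini-Hochberg, threshold 0.05). "Rose" and "fell" are used for values past it. Fold changes on this scale understate those of dim genes. The brightest probe set by mean represents each gene, and the same one in every alternative. Probes of related chemokines may bind each other's transcripts.

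Named are all members with a group mean signal above 100 or past the threshold, and the 3 brightest others. The members and lists were chosen with earlier results of these data known. As alternatives the pseudocount was 1 or 64, the dimmest 60% or none were set aside, arrays were quantile normalized or median centred, the intensity trend was dropped, arrays were weighted by quality, the replicate number was blocked, arrays were dropped in turn, the threshold was 0.10, or probe sets of a gene were averaged. Sequences are from RefSeq (GRCm38.p6), whose coordinates are those of the promoter table and not of the arrays. Plots were made in Python 3.11.15 using matplotlib 3.10.9.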

Additional observations from a re-analysis of the deposited data

How the results depend on the processing

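Of the 24 named members, Ccr2 stayed past the threshold in all 6 fits with an array left out and in all 10 other alternatives. Ccl5 and Ccl9 did in all 6 and in 9 and 8 of the 10. The count over all probe sets was 370, against 88 without an intensity trend, 208 when dim probe sets were kept, 563 with array quality weights, 738 at a threshold of 0.10 and 104 to 469 with an array left out. The 3 receptor calls became 1 with no filter, with the lowest 60% left out, without an intensity trend and with a pseudocount of 1, and 1 to 3 with an array left out. The 4 ligand calls became 0 without an intensity trend, where limma gave 7 at an unadjusted p under 0.05, and 2 to 4 with an array left out. The 1 call among signalling genes became 2 at a threshold of 0.10 and with array quality weights, 0 without an intensity trend (5 at an unadjusted p under 0.05), and 0 to 1 with an array left out.

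The median difference of tested receptors was 1.60 over 9 genes. It was -0.28 with the lowest 60% left out, which keeps 4 genes, 0.17 with no filter, 0.93 and 1.25 with pseudocounts of 1 and 64, and 0.69 to 1.92 with an array left out. That of tested ligands was 0.97 over 17 genes, 1.68 with the lowest 60% left out, 0.29 with no filter, 1.09 and 0.74 with pseudocounts of 1 and 64, and 0.40 to 1.21 with an array left out. In these alternatives signs turned for 5 named members, none of them past the threshold. Ccl27a was at 0.0584 with median centring and 0.0570 with quantile normalization. With an array left out, Ccl27a ran from -0.46 to 0.26, Ccl4 from -0.0078 to 0.53, Cxcl1 from -1.58 to 0.86, Cxcl12 from -0.52 to 0.55 and Cxcl16 from -0.56 to 0.0578. Over the mean of its probe sets, Cxcl12 was at -0.0883 and Cxcl16 at 0.48. Apart from counts set by fewer genes or arrays, the cause was not tested.

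With the replicate number as a block, 312 probe sets passed, with 2 receptor calls and 4 ligand calls, the lost one being Ccr1. Same-numbered arrays of the groups deviated together with correlations of 0.14, -0.03 and 0.05, and 3 of 6 arrays correlated best with their own number, so the numbers were not taken as pairs. Dim members near the signal floor have the least certain fold changes.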
